A study of Rattus norvegicus with 233 samples.

Results

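A26, A21 and A46 are 3 transcripts of an 84-assay panel read out with real-time PCR in individual rat hepatocytes. They were chosen by the measured values: among 77 assays that could be compared, the difference between 24 h and 0 h after partial hepatectomy differed most between the diets for A26, then A46, then A21. The order is that of group means under the scaling described below; with medians over cells A21 ranked 10, and without scaling it ranked 1. The deposited table lists assays by number, and the sources used here do not pair A21, A26 or A46 with a gene, so no gene name, function or sequence is given. For the same reason the hepatocyte label was not checked against marker genes.

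In partial hepatectomy a surgeon resects some of the liver lobes. The remaining hepatocytes, which are normally quiescent, re-enter the cell cycle and restore the lost mass, and hepatocytes are also the cells that metabolise most ingested ethanol. The study compared these 2 influences in cells cut from rat liver by laser capture microdissection. All animals were on a Lieber-De Carli regimen, a liquid diet given with ethanol or, as its control, without it (labelled Ethanol and Carbohydrate). The 233 cells form 4 groups: 69 from the control diet at 0 h, 55 from the control diet at 24 h, 55 from the ethanol diet at 0 h and 54 from the ethanol diet at 24 h after resection. Each cell was reverse transcribed and pre-amplified for 22 cycles before 30 cycles of PCR on a microfluidic array.

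A value is a cycle threshold (Ct), the cycle at which the product is detected, so an early (low) Ct stands for abundant template, and each cycle is worth close to a doubling. Where an assay gave no value in a cell the table lists NULL, which does not tell an undetected transcript from a failed reaction. The relative level used here is the median Ct of the cell over 28 widely detected assays minus the Ct of the assay, on a log2 scale, so higher means more transcript relative to the rest of the cell. No cell is tied to an animal in the labels. Each group therefore counts as 1 sample, every difference below is a description without a test, and each SD is over cells and leaves out the spread between animals. Cells differed in how much of the panel they yielded, with a median of 54 assays with a value at 0 h on the control diet, 64 at 0 h on the ethanol diet and 71 at 24 h on both. The part of this difference in the results was not tested, and each assay is also given within cells with 55 or more values.

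The relative level of A26 was highest in control cells before regeneration and lower in every other group. Its relative level at 0 h on the control diet ran from -8.82 to 4.25 with a median of -1.53 (64 cells with a value). On the ethanol diet at 0 h it ran from -11.4 to 3.31 with a median of -5.0 (46 cells). At 24 h it ran from -9.88 to 5.18 with a median of -4.08 without ethanol (49 cells) and from -10.9 to 6.09 with a median of -4.01 on the ethanol diet (46 cells). The 4 distributions overlapped over most of their width, and what differed was the position of the bulk of the cells. Of the cells with a value, 18.4% of 24-h control cells, 10.9% of 0-h ethanol cells and 17.4% of 24-h ethanol cells lay above the median of 0-h control cells. The quartiles were -3.43 and -0.11 in 0-h control cells, against -7.47 and -3.0 in 0-h ethanol cells, so the middle ranges of these 2 groups met only at their edges.

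In means, A26 stood at -2.04 ± 2.95 (SD, n = 64 cells) in 0-h control cells, -3.81 ± 3.24 (SD, n = 49 cells) in 24-h control cells, -5.09 ± 3.39 (SD, n = 46 cells) in 0-h ethanol cells and -3.96 ± 3.29 (SD, n = 46 cells) in 24-h ethanol cells. From 0 h to 24 h the mean was lower by 1.77 on the control diet (a difference of -1.77) and higher by 1.13 on the ethanol diet. The second of these minus the first was 2.89. The 2 groups at 24 h differed by -0.16, far less than either SD. The order of the means was control 0 h, control 24 h, ethanol 24 h and ethanol 0 h, and every gap between neighbours in that order was smaller than the SD over cells. Raw Ct, which involves no scaling, gave medians of 16.6, 17.3, 18.7 and 16.7 for control 0 h, control 24 h, ethanol 0 h and ethanol 24 h. Without scaling, 0-h control and 24-h ethanol cells were thus nearly equal in median, though their mean Ct was 16.4 and 17.2. The median of the common-assay Ct was 14.5 in 0-h control cells and 13.1 in 24-h ethanol cells. These components moved with the processing. The time difference lay between -2.80 and -0.65 on the control diet over 14 alternative settings, and it was -0.65 in the cells lacking a set of 5 assays that were missing together (15 cells with A26 at 0 h and 10 at 24 h). On the ethanol diet it lay between 0.56 and 1.72 over 13 settings and was under 1 in 5 of them. The gap between diets at 24 h lay between -1.29, in those same cells, and 0.35, without scaling, so it had no settled direction.

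**Figure D1:**
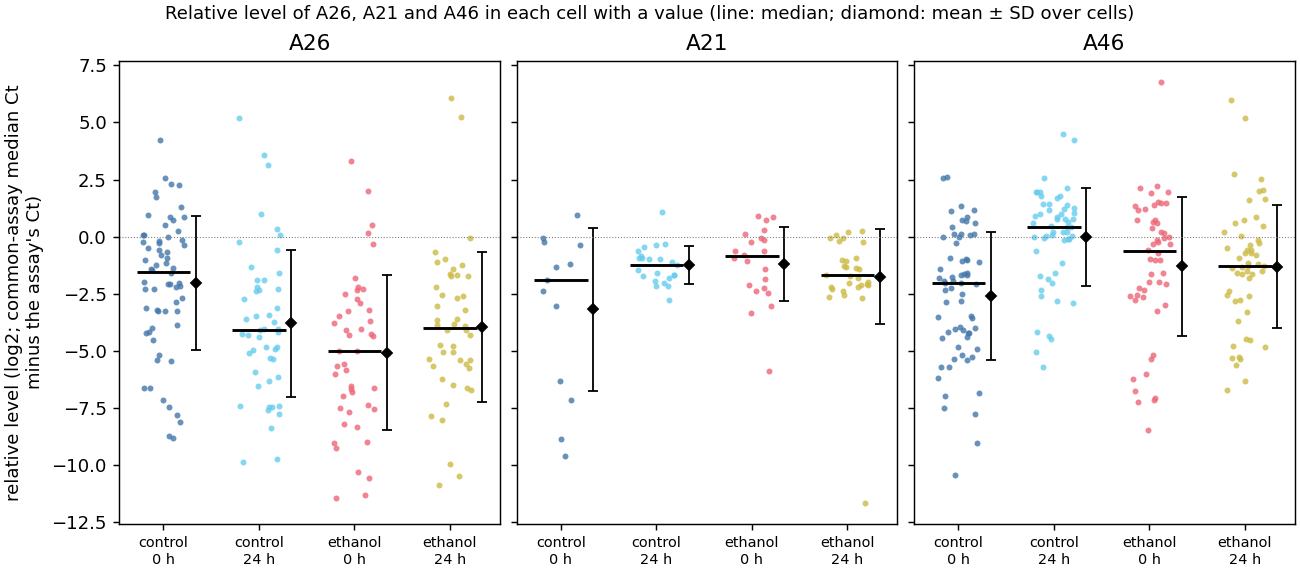
Relative level on a log2 scale (vertical axis) in every cell with a value for A26, A21 and A46, by diet and time (horizontal axis). Each point is a cell, the horizontal line the median and the diamond with its bar the mean ± SD over cells. Control cells at 0 h lie highest for A26 and lowest for A46, and for A21 they include 4 of 13 values at -6.35 or lower, against 1 of 30 in 24-h ethanol cells.

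The A26 level differed with how completely a cell was measured. In cells with 55 or more values on the panel it was -2.50 ± 2.71 (SD, n = 31 cells) on the control diet and -6.16 ± 2.59 (SD, n = 34 cells) on the ethanol diet at 0 h, a difference of -3.66. In cells with fewer than 55 values it was -1.61 ± 3.15 (SD, n = 33 cells) and -2.08 ± 3.66 (SD, n = 12 cells), a difference of -0.47. The mean of 0-h ethanol cells was thus lower in the more completely measured cells, but the other set held only 12 ethanol cells with a value. A NULL also counts as a late Ct in the cell's median, which can raise the relative level in cells with fewer values. Over 205 cells, with group means removed from both, the A26 level had a Spearman correlation of -0.35 with the number of assays with a value. The part of the scaling in this split was not tested. At 24 h the diets differed by -0.15 in cells with 55 or more values, and too few cells had fewer than 55 for a comparison.

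A26 was also near the lower end of the panel in a property that the choice of assays did not use. Within groups, the Ct of most assays followed that of the rest of the cell: the Spearman correlation of an assay's Ct with the cell's median Ct over common assays other than itself and A26, A21 and A46 had a median of 0.57 over the 77 assays. For A26 it was -0.04 over 205 cells, the third lowest of the 77, where the lowest was -0.11. It was 0.38 for A21 (88 cells) and 0.40 for A46 (226 cells). The Ct of A26 thus showed little relation to the cell's overall template, whereas its relative level did: its Spearman correlation with the common-assay median Ct was 0.53, a number in which the same median enters both sides. The spread of A26 within groups was wide, with a pooled SD of 3.20, the fifth largest of 77 assays (median 1.92). A26 was detected in most cells of every group, in 92.8% of 0-h control cells (64 of 69, exact Clopper-Pearson 95% interval 83.9% to 97.6%), 89.1% of 24-h control cells (49 of 55, 77.8% to 95.9%), 83.6% of 0-h ethanol cells (46 of 55, 71.2% to 92.2%) and 85.2% of 24-h ethanol cells (46 of 54, 72.9% to 93.4%). These intervals overlapped, and they cover counting error over cells only.

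A46 had close to the reverse pattern on the control diet and, in means, almost none on the ethanol diet. In control cells it ran from -10.5 to 2.62 with a median of -2.06 at 0 h (66 cells), and from -5.71 to 4.50 with a median of 0.41 at 24 h (55 cells). In ethanol cells it ran from -8.50 to 6.77 with a median of -0.65 at 0 h (52 cells) and from -6.74 to 5.97 with a median of -1.28 at 24 h (53 cells). Of 24-h control cells, 83.6% lay above the median of 0-h control cells, above which 50% of the 0-h control cells lie by construction. In the ethanol groups 65.4% at 0 h and 67.9% at 24 h lay above it. A relative level above 0, meaning an earlier Ct than the cell's common-assay median, was found in 14 of 66 0-h control cells and in 35 of 55 at 24 h, against 19 of 52 and 14 of 53 ethanol cells.

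The mean of A46 was -2.62 ± 2.80 (SD, n = 66 cells) in 0-h control cells and -0.02 ± 2.14 (SD, n = 55 cells) at 24 h, a difference of 2.60. It was -1.30 ± 3.04 (SD, n = 52 cells) in 0-h ethanol cells and -1.32 ± 2.70 (SD, n = 53 cells) at 24 h, a difference of -0.01. The ethanol value minus the control value was -2.61. Ethanol cells were higher than control cells by 1.32 at 0 h and differed from them by -1.30 at 24 h, so the ethanol groups lay between the control groups. Each of these 2 gaps was smaller than the SD over cells in the ethanol groups. The time difference on the ethanol diet lay between -0.63 and 0.54 over 13 alternative settings, so it had no settled direction. The 24 h gap was -0.72 without scaling, and the 0 h gap was 0.83 when only the 12 assays detected in at least 90% of every group's cells were used for scaling. In cells with 55 or more values the control means were -3.04 and -0.22 and the ethanol means -1.51 and -1.61, at 0 h and 24 h, close to those of all cells. A46 was the sixth most often detected of the 84 assays, with a value in 95.7% of 0-h control cells (66 of 69, exact 95% interval 87.8% to 99.1%), in all 55 24-h control cells (93.5% to 100%), in 94.5% of 0-h ethanol cells (52 of 55, 84.9% to 98.9%) and in 98.1% of 24-h ethanol cells (53 of 54, 90.1% to 99.95%).

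**Figure D2:**
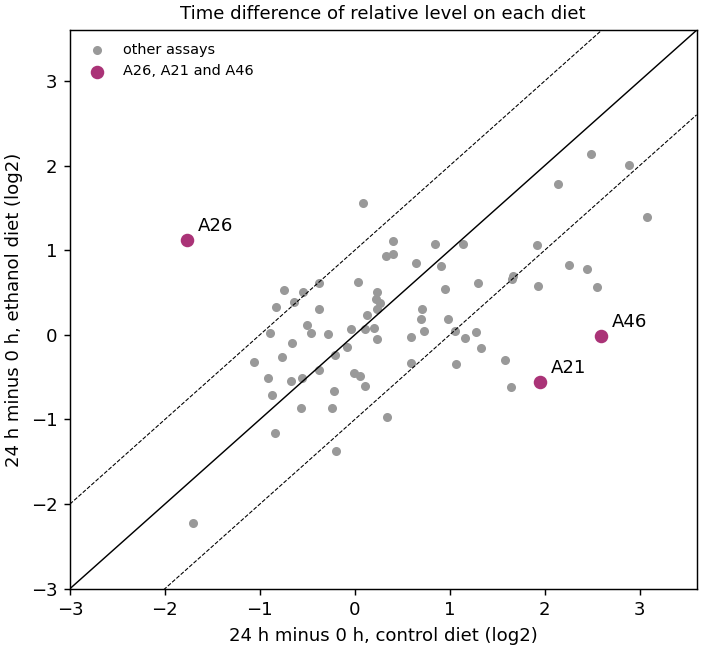
Difference in mean relative level between 24 h and 0 h (log2) on the control diet (horizontal axis) and on the ethanol diet (vertical axis) for the 77 assays with at least 10 cells with a value in every group. On the solid line the difference is the same on both diets and the dashed lines mark a gap of 1; A26, at -1.77 and 1.13, lies above them, and A46 (2.60 and -0.01) and A21 (1.95 and -0.55) lie below, which is how they were chosen.

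A21 was a sparsely detected transcript, and the groups differed in how many cells gave a value as well as in level. It had a value in 18.8% of 0-h control cells (13 of 69, exact 95% interval 10.4% to 30.1%) and in 41.8% of 24-h control cells (23 of 55, 28.7% to 55.9%). Among ethanol-fed cells, 40.0% gave one at 0 h (22 of 55, 27.0% to 54.1%) and 55.6% did at 24 h (30 of 54, 41.4% to 69.1%). The share was thus higher at 24 h on both diets, by 23.0 and 15.6 percentage points, and higher on the ethanol diet at both times, by 21.2 and 13.7 points. On this measure the time difference had the same direction on both diets. The whole panel went the same way with time. NULL made up 35.7% of all entries in control 0 h, 19.3% in control 24 h, 28.1% in ethanol 0 h and 18.7% in ethanol 24 h. At 24 h the diets were thus close over the panel. The part of the panel-wide share in that of A21 was not tested. Cells with a value for A21 were also the more completely measured ones: their median number of assays with a value was 59, 74, 69 and 75 for control 0 h, control 24 h, ethanol 0 h and ethanol 24 h, against 52, 69, 55 and 62.5 in cells without one. Among cells with 55 or more values, the share with A21 was 28.1% in 0-h control cells (9 of 32, 13.7% to 46.7%), 47.9% in 24-h control cells (23 of 48, 33.3% to 62.8%), 56.4% in 0-h ethanol cells (22 of 39, 39.6% to 72.2%) and 60.4% in 24-h ethanol cells (29 of 48, 45.3% to 74.2%). The 0-h control cells stayed lowest in this subset.

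**Figure D3:**
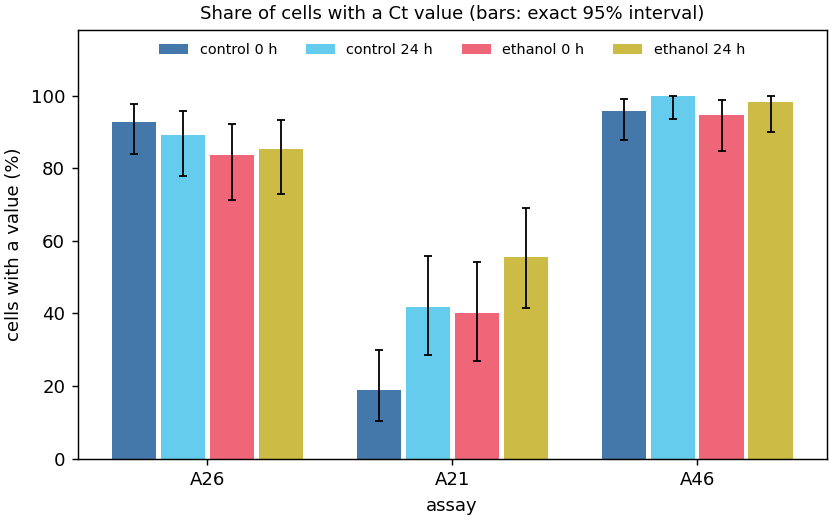
Percentage of cells in each group with a Ct value (vertical axis) for A26, A21 and A46, with exact 95% intervals over cells. A26 and A46 were detected in over 80% of the cells of every group, whereas A21 ranged from 18.8% in 0-h control cells to 55.6% in 24-h ethanol cells.

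The level of A21 among cells with a value rested on few cells. In 0-h control cells it ran from -9.61 to 0.93 with a median of -1.89 (13 cells), and these fell into 4 cells between -9.61 and -6.35 and 9 cells between -3.06 and 0.93. In 24-h control cells it kept within a narrow range, from -2.79 to 1.08 with a median of -1.24 (23 cells). In ethanol cells it ran from -5.91 to 0.91 with a median of -0.86 at 0 h (22 cells) and from -11.7 to 0.25 with a median of -1.70 at 24 h, where 1 of the 30 cells lay at -11.7 and the next at -2.68. The 4 low control cells were those with a Ct above 20, late in the 30 cycles, which was found in 0 of 23 24-h control cells, 1 of 22 0-h ethanol cells and 2 of 30 24-h ethanol cells.

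The means of A21 were -3.20 ± 3.56 (SD, n = 13 cells) in 0-h control cells, -1.25 ± 0.82 (SD, n = 23 cells) in 24-h control cells, -1.20 ± 1.64 (SD, n = 22 cells) in 0-h ethanol cells and -1.76 ± 2.09 (SD, n = 30 cells) in 24-h ethanol cells. The times differed by 1.95 without ethanol and by -0.55 with it, and the second minus the first was -2.50. These means cover only cells with a value. With each NULL entered at Ct 30, which mixes detection into the level, the time difference was 3.69 on the control diet and turned to 1.38 on the ethanol diet, and ethanol minus control at 24 h turned from -0.51 to 1.46. With medians in place of means the control difference was 0.64 and the gap between diets -1.48. Among cells with A21 at or below Ct 20 the medians were -1.19 (9 cells), -1.24 (23 cells), -0.80 (21 cells) and -1.70 (28 cells) for control 0 h, control 24 h, ethanol 0 h and ethanol 24 h. The control difference was then -0.056 and the gap between diets -0.845, below the size of 1 used here, in a comparison that was chosen after the values were seen and that has only 9 0-h control cells. The share of cells with A21 at or below Ct 20 was 13.0% (9 of 69, exact 95% interval 6.14% to 23.3%), 41.8% (23 of 55, 28.7% to 55.9%), 38.2% (21 of 55, 25.4% to 52.3%) and 51.9% (28 of 54, 37.8% to 65.7%) in the same order. Below this limit the 0-h control cells were thus inside the range of the other groups in median level and below all of them in the share of cells.

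All 3 assays differed by at least 1 between diets in the time difference, as did 28.6% of the 77 assays, and this is the value on which they were chosen. All 3 differed by at least 1 between times on the control diet, where 31.2% of 80 assays did, and between diets at 0 h, where 20.8% of 77 did. Both comparisons use the 0-h control cells. Both also enter the value on which the assays were chosen, so large differences in them are favoured by the choice. The 2 comparisons without the 0-h control cells enter that value too. Of these, the time difference on the ethanol diet reached 1 for A26 alone, against 16.0% of 81 assays. The diet difference at 24 h reached 1 for A46 alone, against 5.95% of 84 assays. The next assays in rank were A13, with a gap between diets of -2.26, and A04, with -1.98, so the step from A21 at -2.50 to the assays just outside was small.

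The patterns rested on the 0-h control cells to different degrees. For A26 the mean of these cells was 2.25 above the mean of the other 3 groups, which spanned 1.28, and the 0-h ethanol cells differed by -1.82 from the mean of the others. For A21 the 0-h control cells differed by -1.79 from the other 3 groups, which spanned 0.55. For A46 both control groups were displaced by like amounts in opposite directions, -1.74 at 0 h and 1.73 at 24 h. The ethanol groups were near the middle, 0.02 from the mean of the others at 0 h. The 0-h control cells were the group farthest from the mean of the other 3 for each of A26, A21 and A46, and for 37 of the 77 assays (48.1%). They were not uniform in the order of their titles. Most of their A26 levels above 0 were in cells numbered up to 35, and most of their A46 levels above 0 in cells from 36 on. To give the same time difference on both diets, the control mean at 0 h would have been -4.93 for A26, -0.70 for A21 and -0.01 for A46. Of the 0-h control cells with a value, 11 of 64 lay below that mark for A26, 9 of 13 for A21 and 51 of 66 for A46.

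Setting A26 against A46 within a cell removes the scaling, because the cell's common-assay median cancels. A26 minus A46 was 0.59 ± 3.17 (SD, n = 61 cells) in 0-h control cells, -3.99 ± 3.42 (SD, n = 49 cells) in 24-h control cells, -4.30 ± 3.25 (SD, n = 44 cells) in 0-h ethanol cells and -2.97 ± 3.31 (SD, n = 46 cells) in 24-h ethanol cells. The Ct of A26 was earlier than that of A46 in 32 of 61 0-h control cells (52.5%), but in only 4 of 49 24-h control cells (8.16%), 4 of 44 0-h ethanol cells (9.09%) and 8 of 46 24-h ethanol cells (17.4%). Among the 0-h control cells, most of those numbered up to 35 in the titles lay above 0, and most from 36 on lay below. What the order of the numbers stands for is not stated, and the division was made after the values were seen. A Ct difference between assays also carries the efficiency of each primer pair, so it is the difference between groups, not the level itself, that can be read. A26 and A46 were chosen for large gaps of opposite sign, to which the 0-h control cells contribute in both, so a wide offset of these cells in the A26 minus A46 difference follows from the choice and supports nothing further.

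**Figure D4:**
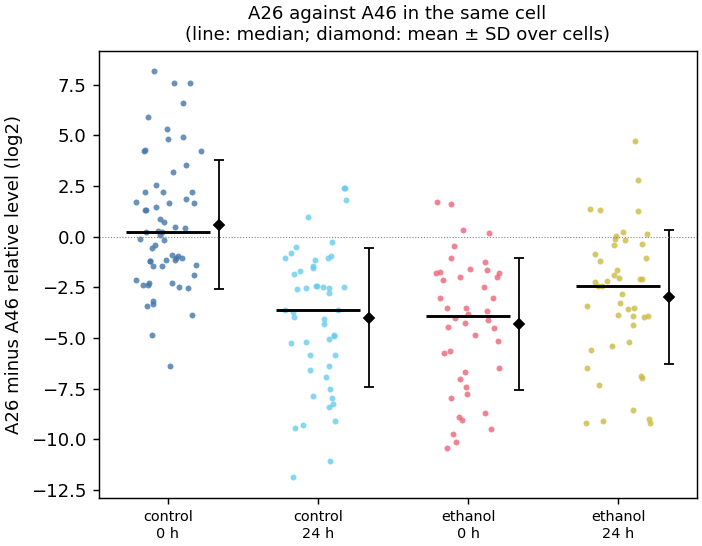
Relative level of A26 minus that of A46 in the same cell (vertical axis, log2) in each group, for the 200 cells with a value for both. Points are cells, lines medians and diamonds means ± SD over cells. The mean of 0-h control cells is 0.59, with most cells numbered up to 35 above 0 and most from 36 on below it. The other groups centre between -4.30 and -2.97.

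The 3 assays did not vary together within groups to any large degree. After group means were removed, the Spearman correlation over cells was 0.24 between A26 and A46 (200 cells), 0.15 between A26 and A21 (84 cells) and 0.20 between A21 and A46 (87 cells), with the cell's common-assay median shared by both sides. All 3 had a value in 12 of 69 0-h control cells, 22 of 55 24-h control cells, 21 of 55 0-h ethanol cells and 28 of 54 24-h ethanol cells, numbers set almost entirely by A21. The shared median favours a positive correlation. Whether A26 and A46 took opposite courses from cell to cell therefore cannot be judged from these Spearman correlations.

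The profiles of A21 and A46 over the 4 group means had closer neighbours among the assays than that of A26. Likeness was taken as the root mean square distance between the 4 group means after each assay's own average was removed. This distance is not scaled for size, and A26 was chosen for the largest gap, so its wide distances follow in part from the choice. For A26 the nearest assays were A51, A63 and A41, at distances of 0.76, 0.79 and 0.85, against a median of 1.20 over 76 assays. For A21 they were A13, A18 and A09, at 0.15, 0.24 and 0.27, against a median of 0.85. For A46 they were A05, A29 and A18, at 0.32, 0.35 and 0.42, against a median of 0.87. A13, nearest to A21, was also next in rank by the difference between diets. A05 and A29, nearest to A46, belong to 5 assays that were missing together in 51 of the 233 cells.

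Over single cells within groups, the assays that followed A26 most closely were A07, A81 and A23, with Spearman correlations of 0.63 (194 cells), 0.61 (196 cells) and 0.58 (171 cells). Those nearest to A46 were A04, A28 and A66, at 0.58 (225 cells), 0.45 (190 cells) and 0.45 (169 cells). A04 also stood just outside the chosen assays by the difference between diets. For A21 the highest values were lower, at 0.40 for A49 (53 cells), 0.38 for A03 (80 cells) and 0.37 for A67 (81 cells). These correlations share the scaling of the cell and its depth and are given as descriptions.

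The assays were chosen on the difference between diets, and every alternative setting reuses the same cells, so a kept direction supports nothing further. The difference between diets kept its direction for A26 and A46 under all 13 settings that gave a value, between 2.58 and 3.54 for A26 and between -3.26 and -2.0 for A46. For A21 it lay between -3.36 and -0.845 over 10 settings. Within the 182 cells not lacking the 5 jointly missing assays it was 3.02 for A26 and -3.26 for A46. Within the 51 cells lacking them, 8 0-h ethanol cells had a value for A26 and 9 for A46, too few for a comparison.

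**Figure D5:**
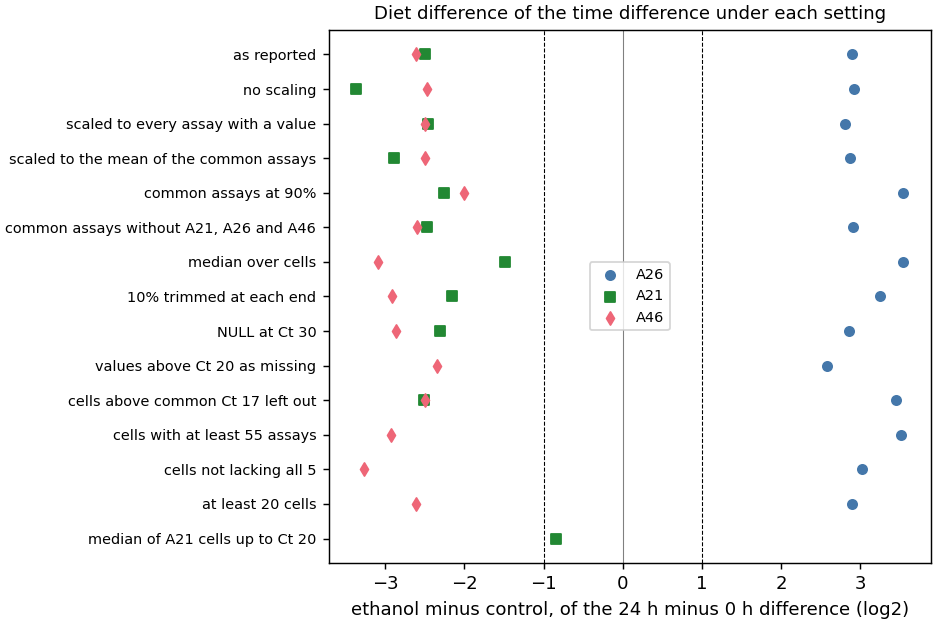
Ethanol minus control of the 24 h minus 0 h difference (horizontal axis, log2) for A26, A21 and A46 under each processing setting (vertical axis); dashed lines mark 1 and -1. A26 stays between 2.58 and 3.54 and A46 between -3.26 and -2.0, whereas A21 falls to -0.845 when medians are taken over cells up to Ct 20, and settings without an A21 point left fewer than the required cells in a group.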

How the data were processed

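Per the labels' protocols, single lysed hepatocytes were reverse transcribed, pre-amplified and run on a BioMark microfluidic array with SYBR Green. The authors deposited 1 Ct per assay and cell, on a log2 scale of template and not normalized. Of 19572 entries 26.1% were NULL, and the others lay between Ct 2.5 and 25.9. Neither the software nor the rule for a NULL is stated there. Every cell had at least 31 values, and no columns were identical.

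Each cell was scaled to its median Ct over 28 assays with a value in at least 80% of every group's cells, a NULL counting as Ct 30 in that median; A26 and A46 are among the 28. Means cover cells with a value, at least 10 per group, and a difference of 1 was the size rule. No test was made. Named assays are A21, A26 and A46, the next 2 in rank and the 3 most alike by each of 2 measures, one of them over at least 40 cells. The assays and rules were chosen with earlier results of these data known. Calculations used Python 3.11.15, pandas 2.3.3 and scipy 1.17.1. They were run on simulated data with known shifts, all in assays outside the 28, so no shift of A26 or A46 was simulated. Missing values were placed at random there, without a tie to how completely a cell was measured.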

Additional observations from a re-analysis of the deposited data

Results flagged for a closer look

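A26 moved by at least 1 in opposite directions between the times on the 2 diets. Its 24 h minus 0 h difference was -1.77 without ethanol and 1.13 with it, a gap of 2.89. The ethanol difference was under 1 in 5 of 13 alternative settings. The control difference was -0.65 in the cells lacking the 5 jointly missing assays. Each group counted as 1 sample, so the gap was not tested, and it is a value on which A26 was chosen.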

How the results depend on the processing

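No paired analysis was possible because a number in a title only counts the cells of its own group. The alternatives reuse the same cells and the value on which the assays were chosen. The gap between diets stayed past 1 in the same direction for A26 and A46 in 13 of 13 alternatives each and for A21 in 9 of 10. For A21 it was -0.845 with medians over cells up to Ct 20, where the control time difference turned to -0.056 from 1.95, a setting chosen after seeing the data that leaves out the 4 latest of 13 control values. Assays past 1 numbered 22 of 77 (6 higher and 16 lower on ethanol), but 55 of 84 with a NULL entered at Ct 30, where level and detection are mixed and A26, A46 and A21 ranked 24, 23 and 32 and the A21 time difference on ethanol turned from -0.55 to 1.38. In the other alternatives that rank the assays A26 ranked 1 or 2, A46 between 1 and 5 (5 with the assays found in 90% of cells) and A21, where it had a value, between 1 and 10 (10 with medians). The split was 8 and 13 without scaling, 14 and 12 in cells with 55 or more values, and 21 and 7 when scaled to the 12 assays found in 90% of cells, which moved the median gap over all assays from -0.28 to 0.46. Relative to these 2 medians the gap of A26 was 3.17 and 3.07, that of A46 -2.33 and -2.47 and that of A21 -2.22 and -2.72. A21 had too few cells for a value above Ct 20 treated as missing, in cells with 55 or more values, by the 5 jointly missing assays and with at least 20 cells a group. A21 had a value in 13 cells at 0 h on the control diet.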
